A study of Mus musculus with 4 samples.

Results

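The TNF ligand and receptor superfamily was described across 4 total RNA-seq libraries of primary mouse cells (strain C57BL/6NJ). The labels name the cells T-helper 2, the CD4 T cell type known for its interleukins 4, 5 and 13, and link a protocol for CD4 T cell differentiation. The members were the genes whose symbol, matched by Ensembl identifier, starts with Tnfrsf or Tnfsf, with Tnf, Lta, Ltb, Ltbr, Cd40, Cd40lg, Cd27, Cd70, Fas, Fasl, Eda2r and Traf1 to Traf6. This gave 50 genes of the 50600 in the tables, 49 of them protein-coding and 1 an antisense RNA, Tnfsf13os. The libraries are biological replicates 1 to 4 of 1 group and share 1 donor identifier, so any p-value measures only the spread between these samples, which may be technical. Age is given as unknown, sex as not collected, and no treatment or allele is named. By the table headers, the libraries are the 0 hours point of a time course of Th1 and Th2 cells, and the labels do not say how far differentiation had gone.

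TNF superfamily ligands are mostly membrane proteins made as trimers, which cluster their receptors on the same or a neighbouring cell. Receptors with a death domain can recruit adaptors that start cell death. Other receptors bind TRAF proteins, which pass the signal to NF-kappaB and MAP kinases. In T cells several of these receptors, among them Cd27, the OX40 receptor Tnfrsf4, the 4-1BB receptor Tnfrsf9 and the GITR receptor Tnfrsf18, act as costimulators, while Cd40lg is the ligand by which helper T cells act on B cells.

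The values are counts of read pairs on the strand where each gene is annotated. The libraries held 1452053 to 2351916 counts each, of which 505 to 996 lay in the members, or 0.0348% to 0.0457%. The ribosomal RNA locus CT010467.1 took 3.47% to 16.8% of the counts. A level in TPM is the count divided by exon length and scaled to the same total in each library, and a gene counted as detected where its mean over the 4 libraries reached 1 TPM. An exact count of 0 allows up to 3 counts, or 1.28 to 2.07 CPM (counts scaled by the library total) per library, and such limits cover counting error only. All 10 T cell markers checked were detected, whereas of 6 Th2 markers only Gata3 and Il4 were, and Il5 and Il13 had no count. Over all protein-coding genes the share detected was 34%. Exons of Cd247, Cd3e, Gata3 and Il5 overlap those of a gene on the other strand. Of markers of other cells, 2 of 8 myeloid (Csf1r, whose exons overlap those of Hmgxb3 on the other strand, and Cd68), 2 of 6 cytotoxic or NK, 1 of 4 non-haematopoietic and 0 of 3 plasma cell markers were detected, with B cell markers given below. In many places of the tables more read pairs fall on the strand opposite to a known gene than on the gene itself, so a count is given below as fragments on the annotated strand and not as the transcript level. The tables were counted with strand setting 1, and which strand the library kit marks is not given in the sources used here. Whether that setting fits the kit was not tested. Were the kit to need the reverse setting, each value of a member or opposite gene would describe the other strand. In bulk samples fewer cells of a type and less RNA per cell cannot be told apart.

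The windows around the starts of 5 members carry positions that the results return to. They are RefSeq sequences of the GRCm38.p6 build, 250 bases before to 50 bases after a RefSeq start, written 5′ to 3′ on the strand of the gene. For Traf5 (chr1:192092550-192092849, minus strand) and Tnfrsf18 (chr4:156026072-156026371, plus strand), capitals mark the bases that lie inside an exon of the gene on the opposite strand. These are the last 23 bases for Traf5, inside an exon of Gm26879, and the last 75 for Tnfrsf18, inside an exon of Gm16008.
Traf5: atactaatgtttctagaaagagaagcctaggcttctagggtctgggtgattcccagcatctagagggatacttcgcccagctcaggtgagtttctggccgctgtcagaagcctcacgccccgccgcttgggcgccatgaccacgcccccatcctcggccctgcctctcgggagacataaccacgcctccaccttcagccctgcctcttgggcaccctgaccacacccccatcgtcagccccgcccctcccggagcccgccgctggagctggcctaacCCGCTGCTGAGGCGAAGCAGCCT
Tnfrsf18: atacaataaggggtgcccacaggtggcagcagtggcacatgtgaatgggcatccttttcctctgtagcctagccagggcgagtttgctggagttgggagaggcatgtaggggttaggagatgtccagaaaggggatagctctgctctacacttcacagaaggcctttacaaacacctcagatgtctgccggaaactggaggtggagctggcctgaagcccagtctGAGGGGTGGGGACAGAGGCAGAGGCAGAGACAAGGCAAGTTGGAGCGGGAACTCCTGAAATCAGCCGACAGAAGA
For Ltb (chr17:35194257-35194556, plus strand), Tnfrsf25 (chr4:152116093-152116392, plus strand) and Traf3 (chr12:111166120-111166419, plus strand), the detected members whose window holds a match to the NF-kappaB consensus, capitals mark those matches.
Ltb: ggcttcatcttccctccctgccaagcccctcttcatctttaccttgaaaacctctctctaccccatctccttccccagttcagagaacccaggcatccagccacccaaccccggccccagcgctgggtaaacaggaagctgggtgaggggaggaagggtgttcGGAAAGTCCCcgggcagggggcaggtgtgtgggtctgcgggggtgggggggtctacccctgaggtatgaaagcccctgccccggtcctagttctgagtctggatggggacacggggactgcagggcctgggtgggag
Tnfrsf25: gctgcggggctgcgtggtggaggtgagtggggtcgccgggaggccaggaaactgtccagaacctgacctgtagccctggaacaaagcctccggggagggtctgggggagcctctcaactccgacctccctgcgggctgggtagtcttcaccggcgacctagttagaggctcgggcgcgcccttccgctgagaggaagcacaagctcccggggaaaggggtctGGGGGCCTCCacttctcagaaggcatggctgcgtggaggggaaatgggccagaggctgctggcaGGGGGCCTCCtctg
Traf3: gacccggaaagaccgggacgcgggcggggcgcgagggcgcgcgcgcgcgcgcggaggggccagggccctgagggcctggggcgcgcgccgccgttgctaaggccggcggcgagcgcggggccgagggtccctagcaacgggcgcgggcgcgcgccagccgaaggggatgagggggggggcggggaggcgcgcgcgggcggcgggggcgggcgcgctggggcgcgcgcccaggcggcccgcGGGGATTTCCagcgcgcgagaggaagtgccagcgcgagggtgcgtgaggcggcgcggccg

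Of the 50 members, 25 were detected, 11 had counts below that level and 14 had no count in any library. The share detected was 34% of all protein-coding genes and 21.6% of all 50600 genes, and 44.6% of the coding genes had no count. The median over the 49 coding members was 1.13 TPM, against 0.144 TPM over all 21764 coding genes. A TPM of 1 or more in each of the 4 libraries was reached by 13 members, and 7 of the 25 detected members had fewer than 20 counts over the 4 libraries. The 14 members without a count were Cd40, Cd70, Eda2r, Fasl, Tnfrsf8, Tnfrsf11a, Tnfrsf11b, Tnfrsf13c, Tnfrsf17, Tnfrsf19, Tnfrsf21, Tnfsf13b, Tnfsf14 and Tnfsf13os. For them 3 counts in a library would correspond to 0.294 to 3.84 TPM, depending on gene length and library.

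**Figure D1:**
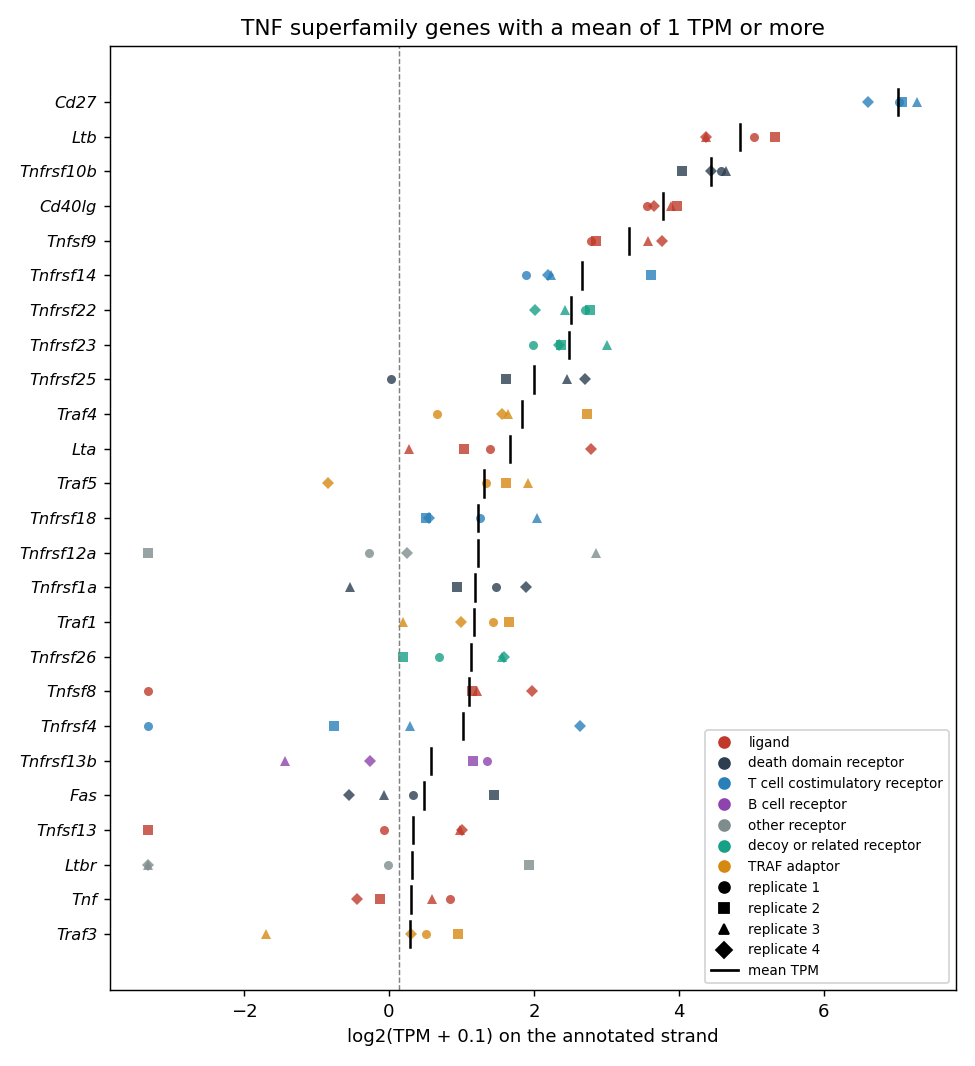
Levels of the 25 detected members as log2(TPM + 0.1), 1 point per library (shape) coloured by role, with a line at the log2 of the mean TPM + 0.1 and a dashed line at 1 TPM. Cd27 lies above the others in all 4 libraries, and many members below Traf4 have a library at or near 0.

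Cd27 stood far above the rest of the family. It is the receptor for Cd70 and a costimulator found on naive T cells. Cd27 (ENSMUSG00000030336.14, chromosome 6, 125232622 to 125237010, minus strand) had 437, 465, 474 and 217 counts in replicates 1 to 4, which is 131, 134, 156 and 97.2 TPM, or 130 ± 24.3 TPM (SD, n = 4). Its lowest library was replicate 4, the least deeply sequenced. It held 49.1% of all 3245 counts in members and was at rank 335 of the coding genes by mean TPM. The lowest Cd27 value lay above the highest value of the next member, Ltb, at 39.98 TPM, so the 2 genes did not overlap. The ligand gene Cd70 (chromosome 17) had no count in any library.

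Of the 6 costimulatory receptors 4 were detected, Cd27 among them, against 34% of all protein-coding genes. Those other than Cd27 were low on their annotated strand. Tnfrsf14, the HVEM receptor that binds Tnfsf14 and Btla, had 6, 21, 7 and 5 counts, or 6.22 ± 4.00 TPM (SD, n = 4). Replicate 2 held more counts than the other 3 libraries together, and the mean was 4.24 TPM without it. Tnfrsf18, the GITR receptor of regulatory and activated T cells (ENSMUSG00000041954.18, chromosome 4, 156026164 to 156028895, plus strand), had 5, 3, 8 and 2 counts, or 2.25 ± 1.26 TPM. Its neighbour Tnfrsf4, the OX40 receptor that is induced by activation, had 0, 1, 2 and 8 counts, and without replicate 4 its mean fell below the detection level, to 0.539 TPM. Tnfrsf9, the 4-1BB receptor, had 5, 3, 1 and 0 counts, or 0.576 ± 0.560 TPM. Tnfrsf8, the CD30 receptor, had none. The highest Tnfrsf9 library, at 1.28 TPM, lay below the lowest of Tnfrsf14, at 3.60. The lowest of Tnfrsf18 was 1.33 TPM, but these values of Tnfrsf9 and Tnfrsf18 rest on 5 and 3 counts. A gap this small is not beyond counting error. The 4 values of Tnfrsf4 overlapped those of Tnfrsf9, Tnfrsf14 and Tnfrsf18.

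Death domain receptors were led by Tnfrsf10b, the mouse receptor for the death ligand TRAIL, which Tnfsf10 encodes. Tnfrsf10b (ENSMUSG00000022074.5, chromosome 14, 69767472 to 69784403, plus strand) had 109, 77, 103 and 66 counts, or 21.7 ± 3.82 TPM (SD, n = 4). These values overlapped those of Ltb and lay above all 4 of Cd40lg. Tnfrsf25, the death receptor 3 that responds to Tnfsf15, had 3, 10, 16 and 14 counts, or 3.92 ± 2.47 TPM, with replicate 1 the lowest. Tnfrsf1a, the TNF receptor with a death domain, had 10, 7, 2 and 9 counts, or 2.18 ± 1.29 TPM. Fas, which triggers death of activated lymphocytes, had 3, 7, 2 and 1 counts, or 1.30 ± 0.908 TPM. Without replicate 2 the Fas mean was 0.863 TPM. Tnfrsf21, the fifth receptor of this kind, had no count.

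Of 4 decoy or related receptors, 3 were detected, against 34% of all protein-coding genes. Tnfrsf22 and Tnfrsf23, known as decoy receptors of mouse TRAIL, and Tnfrsf26 lie side by side on the minus strand of chromosome 7, between 143607659 and 143685872. Tnfrsf22 had 39, 42, 29 and 16 counts, or 5.59 ± 1.26 TPM (SD, n = 4). Tnfrsf23 had 22, 30, 41 and 19 counts, or 5.47 ± 1.73 TPM, which did not differ from Tnfrsf22 beyond the spread between libraries. Tnfrsf26 had 7, 5, 12 and 9 counts, or 2.08 ± 0.948 TPM, and its 4 values lay below all 4 of both neighbours. These 3 genes are close relatives, and how the counting treated read pairs that fit more than 1 of them is not given in the sources used here. Tnfrsf11b, the soluble decoy osteoprotegerin, had no count.

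Of the 4 receptors of B cells, 3 had no count, against 44.6% of all protein-coding genes. The other, Tnfrsf13b, was detected, against 34% of all protein-coding genes. Cd40, Tnfrsf13c and Tnfrsf17, the receptors for Cd40lg, for the survival factor BAFF and for APRIL, had no count. Tnfrsf13b, the TACI receptor, had 10, 9, 1 and 2 counts, or 1.399 ± 1.06 TPM (SD, n = 4). Of 7 B cell markers 4 were detected, Cd79a at 39.0 ± 3.91 TPM, Ighm at 22.7 ± 7.53, Fcer2a at 1.49 ± 0.972 and Cr2 at 1.04 ± 0.268. The markers Cd79b, Ms4a1 and Pax5 had no count. Exons of Pax5 overlap those of Gm12462 and 5730488B01Rik on the other strand, and Ms4a1 overlaps the body of a gene there. The summed level of the 7 markers was 66.8 to 82.2 CPM per library. Their part in the count of Tnfrsf13b was not tested.

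Of the other 6 receptors, 2 were detected, each through 1 library. This share, 33.3%, is near the 34% of all protein-coding genes. Tnfrsf12a, the receptor of the ligand TWEAK, had 1, 0, 9 and 1 counts, and its mean of 2.24 TPM became 0.602 TPM without replicate 3. Ltbr, the lymphotoxin beta receptor, which is best known from stromal and myeloid cells, had 3, 13, 0 and 0 counts, and its mean of 1.15 TPM became 0.296 TPM without replicate 2. Of the 8 myeloid markers, Lyz2, Adgre1, Cd14 and Itgax had no count, and the sum over all 8 was 294 to 386 CPM per library, most of it in Csf1r. Their part in the Ltbr counts was not tested. Tnfrsf1b, the TNF receptor without a death domain, had 5, 10, 4 and 0 counts, or 0.869 ± 0.722 TPM (SD, n = 4), and 1.16 TPM without replicate 4. Tnfrsf11a, Tnfrsf19 and Eda2r had no count.

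Ligands were detected in 7 of 18 cases, or 38.9%, near the 34% of all protein-coding genes. Of the 18, 4 had no count, against 44.6% of the coding genes. Ltb, the membrane chain of lymphotoxin (ENSMUSG00000024399.5, chromosome 17, 35194439 to 35196320, plus strand), had 71, 90, 41 and 30 counts, or 28.5 ± 9.50 TPM (SD, n = 4). Its neighbours on the minus strand were far lower. Lta, the soluble lymphotoxin chain that pairs with Ltb, had 5, 4, 2 and 9 counts, or 3.09 ± 2.53 TPM, and 1.86 TPM without replicate 4. Tnf had 4, 2, 3 and 1, or 1.14 ± 0.495 TPM. The lowest Ltb library, at 20.6 TPM, lay above the highest of Lta, at 6.79 TPM.

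Cd40lg was the next ligand. Cd40lg (ENSMUSG00000031132.1, chromosome X, 57212143 to 57224042, plus strand) had 21, 29, 24 and 15 counts, or 13.6 ± 1.84 TPM (SD, n = 4), the smallest relative spread of the 8 members tested for spread. It has no gene of the opposite strand within 5 kb. Tnfsf9, the ligand of the 4-1BB receptor, had 12, 13, 19 and 16 counts, or 9.83 ± 3.40 TPM, which overlapped Cd40lg. Its neighbours within 100 kb, Cd70 and Tnfsf14, had none. Tnfsf8, the CD30 ligand, had 0, 12, 11 and 14 counts, or 2.04 ± 1.57 TPM, so replicate 1 stood apart from the others with none. The remaining ligands were at or below 1.16 TPM. Tnfsf10, the gene for TRAIL, had 8 counts in all, Tnfsf11, the gene for RANKL, and Tnfsf15, the gene for TL1A, had 1 each, and Fasl, the gene for the Fas ligand, had none.

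The genes for the ligands TWEAK and APRIL cannot be separated well in these tables. Tnfsf12 and Tnfsf13 lie side by side on the minus strand of chromosome 11, and the readthrough gene Tnfsfm13 spans both. Tnfsf13 shares 60.05% of its exon bases with Tnfsfm13, and Tnfsf12 shares 48.3%. A read pair within shared bases fits more than 1 gene of the strand, so their 9, 6 and 6 counts are uncertain. Tnfsf13os, annotated on the other strand of this locus, had no count. It overlaps the exons of Tnfsf13 by 221 bases and those of Tnfsfm13 by 253.

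Ligands and receptors were set side by side for 27 known pairs, in which members recur. The list may not hold every known pair, so the counts describe the listed pairs only. Both genes were detected in 4 pairs, Ltb with Ltbr, Lta with Tnfrsf1a, Tnf with Tnfrsf1a and Tnfsf13 with Tnfrsf13b. Only the receptor was detected in 12 pairs, among them Cd27 with Cd70 and Tnfrsf10b with Tnfsf10. Only the ligand was detected in 6, among them Cd40lg with Cd40 and Tnfsf9 with Tnfrsf9, and neither in 5. Of these 4 listed pairs, only Lta with Tnfrsf1a had both detected whichever library was left out.

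**Figure D2:**
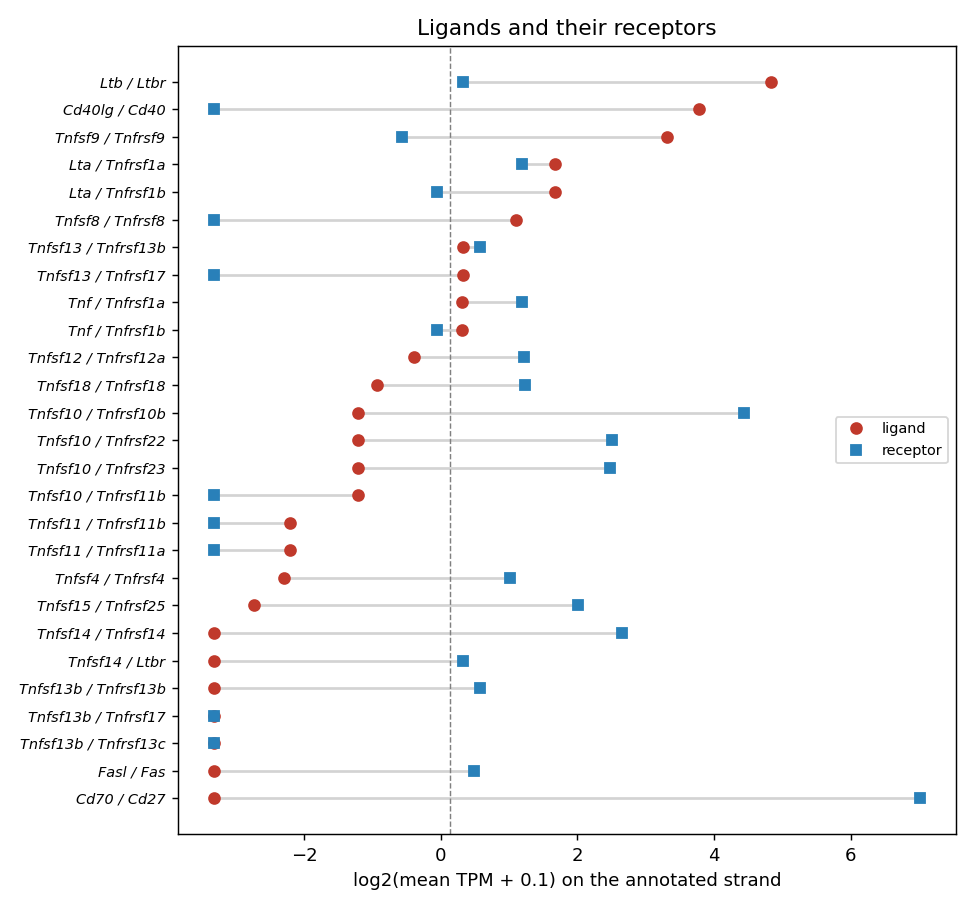
Mean level over 4 libraries of each ligand (circle) and receptor (square) in 27 known pairs, as log2(mean TPM + 0.1), with a dashed line at 1 TPM. The receptor Cd27 and the ligands Ltb and Cd40lg lie far to the right of their partners.

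All 6 TRAF adaptors had counts and 4 were detected, against 34% of all protein-coding genes. Their means ran from 0.649 TPM for Traf6 to 3.48 TPM for Traf4. The lowest Traf4 library, at 1.48 TPM, lay above the highest of Traf6, at 1.07, and of Traf2, at 1.32. These values rest on 7, 11 and 10 counts, and gaps this small between single libraries are not beyond counting error. Traf4 had 7, 32, 13 and 9 counts, or 3.48 ± 2.16 TPM (SD, n = 4), with replicate 2 the highest. Traf5, an adaptor of costimulatory receptors in T cells (ENSMUSG00000026637.13, chromosome 1, 191997205 to 192092559, minus strand), had 16, 20, 22 and 2 counts, or 2.38 ± 1.38 TPM, with replicate 4 the lowest. Traf1, which is induced by NF-kappaB, had 33, 40, 12 and 16 counts, or 2.15 ± 0.879 TPM. Traf3, a restraint on non-canonical NF-kappaB signalling, had 14, 20, 2 and 8 counts, or 1.13 ± 0.678 TPM, and 0.890 TPM without replicate 2. Traf2, which recruits ubiquitin ligases to the receptors, had 6, 10, 0 and 3 counts, and Traf6, shared with Toll-like receptors, had 9, 7, 11 and 1.

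Far more fragments lay opposite to some members than on them. The opposite gene was taken as the gene of the other strand with the largest exon overlap. It was denser, with more counts per exon base, in all 4 libraries for the 4 members whose pair had at least 20 counts. Over all 5438 such pairs of the tables this held for 46.7%, and over 1474 pairs of a coding gene with a non-coding opposite gene for 80.4%. The 4 member pairs are all of this second kind, of which 2 share an opposite gene, so their count is read against 80.4%, which most such pairs reach. By the exact two-sided sign-flip permutation each pair had p = 0.13, the smallest that 4 libraries allow (2 of 16 sign patterns, adjusted p = 0.138 over all pairs), so no pair could pass 0.05.

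**Figure D3:**
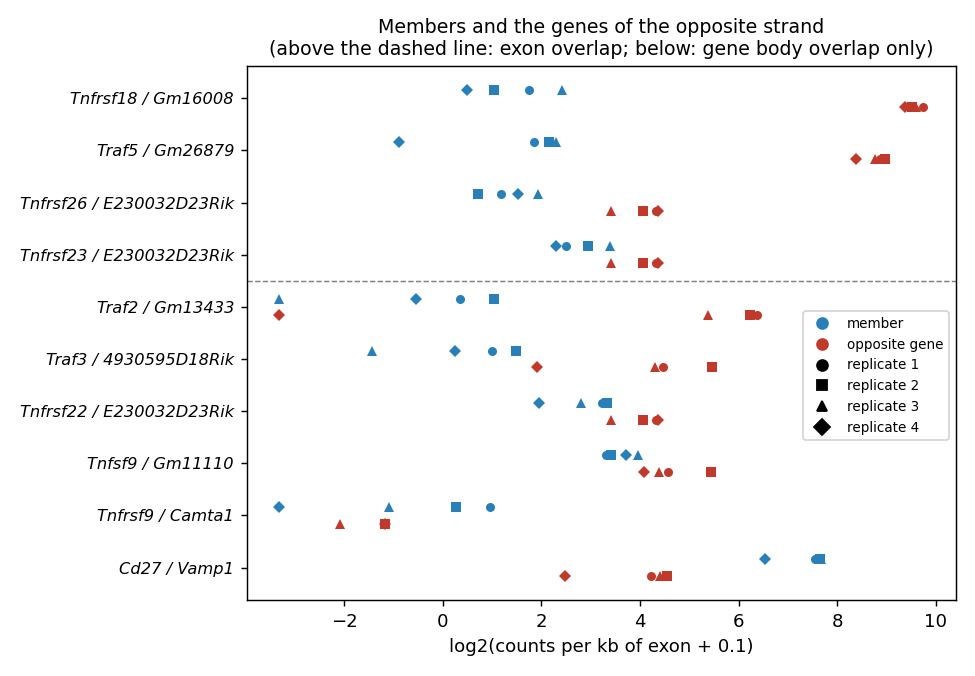
Counts per kb of exon, as log2 with 0.1 added, of members (blue) and of the gene on the opposite strand (red), 1 point per library. Gm16008 and Gm26879 lie far to the right of Tnfrsf18 and Traf5 in all 4 libraries, whereas Cd27 lies to the right of Vamp1.

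Opposite to Tnfrsf18, the antisense gene Gm16008 (chromosome 4, 156022008 to 156031643, minus strand) had 1135, 975, 1026 and 882 counts, or 595 ± 81.3 TPM (SD, n = 4). Tnfrsf18 itself had 0.389% of its count density, which makes Gm16008 257-fold denser (exact 95% interval 162 to 434). Such intervals pool the read pairs of the 4 libraries as if independent and cover counting error only, so the spread between libraries is given by the SD of the log2 ratio. On the log2(TPM + 0.1) scale the ratio of Tnfrsf18 to Gm16008 was -8.12 ± 0.73. The libraries of the 2 genes did not overlap. The exons of Gm16008 overlap Tnfrsf18 over 334 bases of its first exon, from 156026297 to 156026630, where the capitals of the Tnfrsf18 window lie, and over 80 bases of its last, both at least partly in coding sequence. No other gene of the plus strand overlaps the exons of Gm16008. Of its exon bases 31.3% lie opposite to exons of Tnfrsf18, and where along its length the counts fall is not in the tables.

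Opposite to Traf5, the antisense gene Gm26879 (chromosome 1, 192092355 to 192099628, plus strand) had 546, 589, 509 and 394 counts, or 335 ± 11.1 TPM (SD, n = 4). Gm26879 was 132-fold denser than Traf5 (exact 95% interval 102 to 173), and the log2 ratio of Traf5 to it was -7.38 ± 1.29. The ratio was -6.74 without replicate 4, in which Traf5 had 2 counts. The 2 genes overlap head to head over 205 bases of the first exon of Traf5, all annotated as untranslated. Exons of Gm26879 also lie over 667 exon bases of Rcor3, a corepressor gene of the minus strand with 20 counts in all. Its counts therefore cannot be assigned to the Traf5 side.

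The 3 decoy receptor relatives on chromosome 7 share 1 opposite gene. E230032D23Rik (143628024 to 143670614, plus strand) starts within Tnfrsf26, and its first exon overlaps the first exon of that gene. It runs across all of Tnfrsf22 and ends within Tnfrsf23, where its exons overlap exons of Tnfrsf23. E230032D23Rik had 34, 28, 18 and 35 counts, or 13.7 ± 5.74 TPM (SD, n = 4). It was 6.60-fold denser than Tnfrsf26 (exact 95% interval 4.45 to 10.04) and 2.40-fold denser than Tnfrsf23 (1.83 to 3.14). The log2 ratios of these members to it were -2.68 ± 0.82 and -1.26 ± 0.92. On the scale of TMM-adjusted CPM, with no division by length, the ratio of Tnfrsf23 to it was -0.056 ± 0.921 (exact permutation p = 1), so that this difference did not hold without the division. The overlaps are small, 107 bases for Tnfrsf26 and 164 for Tnfrsf23. Tnfrsf22 lies between exons of E230032D23Rik and had a density 2.27-fold lower (1.74 to 2.94). In counts not divided by length Tnfrsf22 had 126 in all against 115, so this difference did not hold without the division either.

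**Figure D4:**
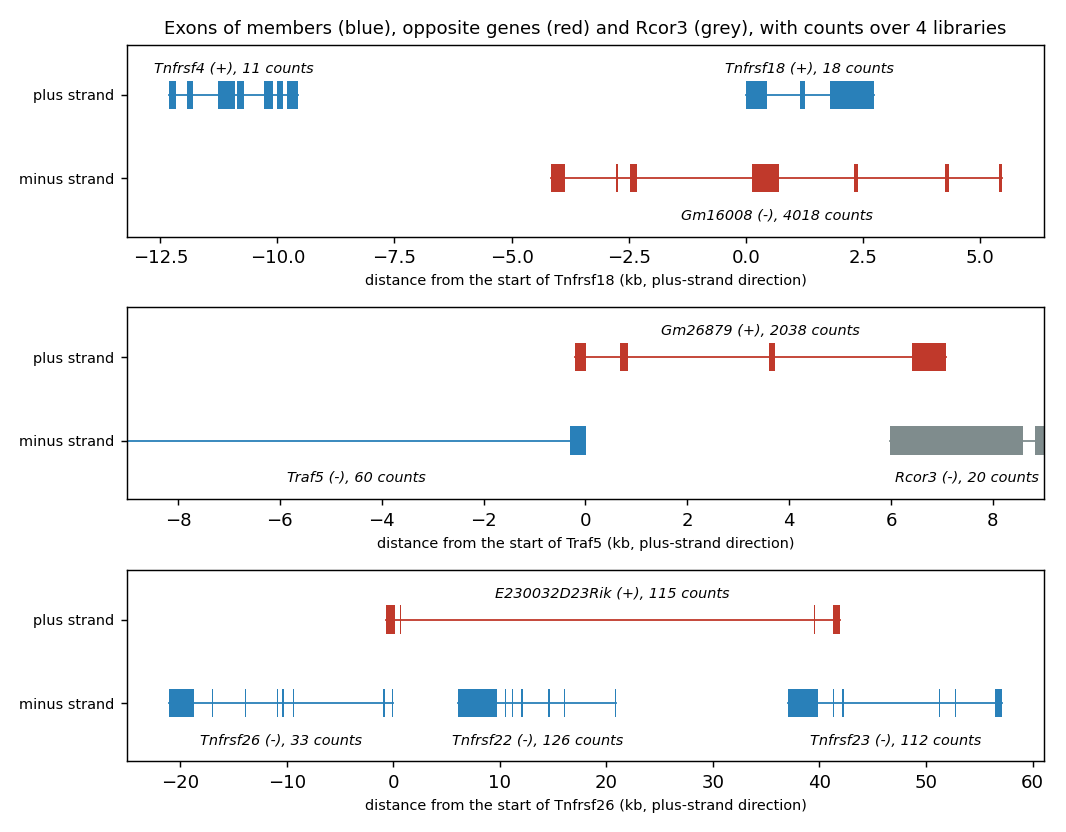
Exons (boxes) of members in blue, opposite genes in red and Rcor3 in grey on the plus and minus strand, by distance in kb from the start of Tnfrsf18, Traf5 or Tnfrsf26, with counts over 4 libraries. Gm16008 with 4018 counts lies across Tnfrsf18 with 18, and Gm26879 with 2038 overlaps the start of Traf5 with 60.

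Members whose gene body overlaps that of an opposite gene, without exon overlap, went both ways. Cd27 lies between exons of Vamp1, a vesicle fusion gene of the plus strand with 190, 237, 214 and 56 counts. Cd27 was denser than Vamp1 in all 4 libraries, by 3.43 ± 0.43 on the log2(TPM + 0.1) scale (SD, n = 4), and both were lowest in replicate 4. Opposite to Tnfsf9, the lincRNA Gm11110 had 24, 44, 21 and 17 counts and was 2.15-fold denser (exact 95% interval 1.55 to 3.00). Opposite to Traf3, 4930595D18Rik had 18, 36, 16 and 3 counts and was 14.9-fold denser (10.1 to 22.2). The pseudogene Gm13433, within Traf2, had 20, 18, 10 and 0 counts, so replicate 4 had none. Camta1, opposite to Tnfrsf9, had 17 counts in all against 9.

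Detection differed with the distance to the next gene on the other strand. Of the 7 members with an opposite exon overlap 5 were detected, of 9 with overlap of the gene body only 5, of 8 with an opposite gene within 5 kb all 8, and of 26 with none within 5 kb 7. Among all protein-coding genes the shares were 57.9%, 30.0%, 41.3% and 19.4% in that order, so the lowest share of both lay in the genes with no such neighbour. The closest neighbour with many counts was Espn, an actin-bundling gene of the minus strand that ends 212 bases beyond the end of Tnfrsf25. Espn, chosen after its values were seen, had 2286, 2125, 1577 and 1242 counts, or 167 ± 20.2 TPM (SD, n = 4), against 3, 10, 16 and 14 for Tnfrsf25. It overlaps no exon of the plus strand. Hcfc1r1, 220 bases from the end of Tnfrsf12a, had 118 ± 27.8 TPM and overlaps exons of Thoc6, and Plekhg6, 176 bases from the end of Tnfrsf1a, had 9.03 ± 2.05 TPM.

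**Figure D5:**
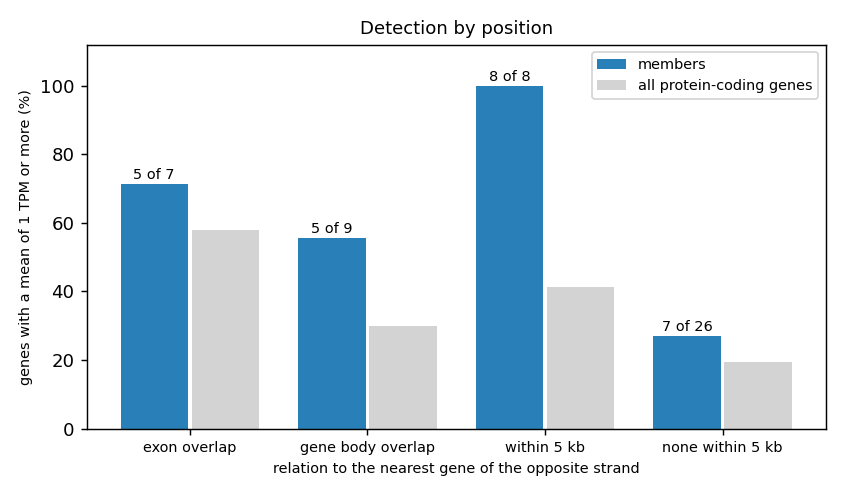
Share of members (blue, with counts) and of all protein-coding genes (grey) with a mean of 1 TPM or more, by relation to the nearest gene of the opposite strand. Both shares are lowest in the group with no such gene within 5 kb, where 7 of 26 members were detected.

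Members share loci beyond this. Within 100 kb of one another lie 24 of the 50 members, in 9 loci. Levels within a locus were uneven. On chromosome 6 Cd27 had 1593 counts in all, while Ltbr and Tnfrsf1a beside it had 16 and 28. On chromosome 17 Ltb had 232, Lta 20 and Tnf 10. On chromosome 1 the ligand genes Tnfsf4 and Tnfsf18, of the OX40 and GITR receptors, had 1 and 4.

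Start windows were found for 39 members, 43 windows in all. The NF-kappaB consensus, searched on both strands, matched in 5 of the 43, or 11.6%, against 8.46% of all 32851 windows. The members were Ltb, Tnfrsf25, Traf3, Tnfrsf8 and Tnfrsf9. In Ltb the match begins 87 bases before the start, and in Traf3 10 bases before it. Their levels ran from 28.5 TPM for Ltb to no count for Tnfrsf8. The GC box GGGCGG, on either strand, was in 53.5% of member windows against 35.7% of all, and TATAAA in 16.3% against 13.6%. A match describes the letters only.

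Whether any member varied between the 4 libraries more than other genes of its level was asked over the whole tables. With edgeR's quasi-likelihood fit over all genes, 16 of 5755 tested genes (0.278%) were more variable than the trend at a Benjamini-Hochberg adjusted p of 0.05, and 0 of the 8 members tested. At an unadjusted p under 0.05 there were 285 genes (4.95%) and also 0 members, and DESeq2 marked 21 genes and 0 members. The 8 members were Cd27, Tnfrsf10b, Ltb, Tnfrsf22, Tnfrsf23, Traf1, Cd40lg and Tnfsf9. Traf1 had the highest ratio of spread to trend, 1.80 (edgeR adjusted p = 0.995), and Cd40lg the lowest, 0.119. The other 42 members had too few counts for this test.

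Signalling genes downstream of the receptors were mostly detected. Of 35 such genes that are no members, 31 were detected and 1, the necroptosis effector Mlkl, had no count, against the 34% of coding genes detected. Their median was 2.91 TPM. The 5 highest were Traf3ip2, an adaptor of interleukin-17 receptors, at 78.4 ± 13.04 TPM (SD, n = 4), Bid, which links death receptors to mitochondria, at 45.2 ± 13.8, Traf3ip3 at 27.4 ± 3.70, Ikbkg, the NEMO subunit of the IKK complex, at 16.6 ± 1.76, and Adam17, the protease that sheds TNF, at 11.7 ± 1.51. All 5 overlap exons of a gene on the opposite strand, which 8 of the 35 do, against 22.1% of all protein-coding genes. Of the death pathway genes, Casp8 had 11.4 ± 2.73 TPM and Ripk1, which overlaps Serpinb6a, 8.76 ± 3.21. Fadd, which overlaps Faddos, had 0.834 ± 0.709. Of 6 superfamily genes outside the naming rule, Relt and Traf7 were detected at 1.84 and 1.81 TPM, and Eda, Edar, Edaradd and Ngfr had no count.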

How the data were processed

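The deposited values are raw counts of read pairs per gene, with each gene's exon length. The authors used featureCounts 1.4.6-p4 on exons of GENCODE mouse release 13 after alignment with STAR, with strand setting 1 and both ends aligned, per the file headers. The labels give mm10. They name the assay as total RNA-seq but link a library protocol named for poly(A)-selected RNA; the kit is not given in the sources used here. Symbols matched 50376 of the 50600 genes by identifier, and gene types came from GENCODE mouse release 21.

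TPM, CPM and exon overlaps were computed from these counts with pandas 2.3.3 and bedtools 2.31.1. Log2 values had 0.1 TPM added. Spread between libraries was tested with edgeR 4.0.16 in R 4.3.3, with TMM factors and filterByExpr, after a test on simulated data, and with DESeq2 1.42.0. The simulation changed only genes with higher counts than most of the members tested. It therefore does not show what the fit would find in those members. Fold intervals are exact (Clopper-Pearson). No library copied another, with a chi-square of 4.65 to 16.95 per degree of freedom for each pair. The members and lists were chosen with earlier results of these data known. One listed marker is not reported here. Values are given for every detected member, members with an opposite gene, the main receptors and ligands of T and B cells, the TRAF genes and the 5 highest signalling genes. Vamp1, Gm11110, 4930595D18Rik, Gm13433, Camta1, neighbours within 5 kb, Casp8, Ripk1, Fadd and the superfamily genes outside the rule were named after their values were seen.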

Additional observations from a re-analysis of the deposited data

Results flagged for a closer look

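Of 29 genes whose 4 library values were checked for a library far from the others, 2 had one, and chance gives about 1 in 20. Tnfrsf14 had 12.2 TPM in replicate 2, from 21 counts, against 3.60 to 4.62 TPM in the other libraries. Tnfrsf12a had 7.16 TPM in replicate 3, from 9 counts, against 0 to 1.08 TPM in the others.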

How the results depend on the processing

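The number of detected members was 25, and 30 at 1 CPM, 31 at 0.5 TPM, 18 at 2 TPM and 22 to 24 when 1 replicate was left out. Without replicate 1 Tnf fell below 1 TPM, without replicate 2 Fas, Ltbr and Traf3, without replicate 3 Tnfrsf12a and Tnfsf13, and without replicate 4 Tnfrsf4 and Tnfsf13, while Tnfrsf1b rose above it. Totals without the mitochondrial genome and CT010467.1, a setting chosen after the data were seen, also gave 25 and raised the TPM of detected members 1.10-fold to 1.17-fold. An opposite gene was denser in all libraries for 4 of 4 pairs with each replicate left out, against 47.2% to 47.9% of all pairs. It was also 4 of 4 with an overlap of 100 bases, against 47.3%, and with at least 100 counts, against 48.9%. With counts not divided by length it was 3 of 4, all but Tnfrsf23, against 47.2%. It was 4 of 7 with at least 1 count, against 40.3%. Overlap of gene bodies, a setting also chosen after the data were seen, gave 7 of 11, against 44.5%. The 80.4% given above, for a coding gene with a non-coding opposite gene, is for the main setting. The log2 ratio of Tnfrsf23 to E230032D23Rik was lost with TMM-scaled CPM, at -0.056 ± 0.921 with libraries on both sides of 0 (exact permutation p = 1), against -1.26. On that scale the ratio was -1.80 for Tnfrsf26, against -2.68, and -5.50 for Traf5, against -7.38. The number of members more variable than the trend was 0 with RLE size factors, with no filter, with DESeq2 and without each replicate. No paired analysis was possible because there is 1 group. A count of 0 in a library allows up to 3 counts, or 1.28 to 2.07 CPM, so lower levels could not be told from 0 within a single library.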
